A study of Mus musculus with 30 samples.

Results

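The mouse liver clock was described through 10 genes of the circadian clock and its direct output, Cry1, Dbp, Tef, Per1, Per2, Per3, Arntl, Npas2, Nr1d1 and Nr1d2, of which 9 could be followed. A gene was taken up where a probe set of the array carried its symbol alone, and of several such probe sets the one with the highest average stood for the gene. Nr1d1 had no such probe set among the annotations used here and is left out, so that 9 of 17097 measured genes are described. The set was chosen by measured values: Cry1 was singled out by earlier results of these data in the comparison of vehicle mice with and without HCC and in the comparison of sulindac with vehicle, and Dbp by its values in single vehicle mice. The other genes were added for their place in the clock, with those results known. Differences of these genes in those comparisons are therefore given as a description, with no test.

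RNA came from liver outside tumours of 30 mice, with 1 array per mouse. On CD-HFD, a high-fat diet lacking choline that causes steatohepatitis and liver cancer, 6 mice received aspirin with clopidogrel and 10 received sulindac, both given prophylactically, and 9 received vehicle. Of the vehicle mice, 4 had developed hepatocellular carcinoma (HCC) and fibrosis and 5 had developed neither. The healthy reference was 5 mice on chow, which the labels also list under vehicle. Aspirin and sulindac inhibit cyclooxygenases, and clopidogrel blocks the platelet receptor P2Y12. The labels used here give no strain, sex, age, duration of diet, feeding state or hour of collection, and the 5 groups therefore cannot be told apart from any difference in these. Values are log2 of the deposited array intensity. Single mice are called by the first word of their title.

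The clock is a feedback loop of transcription. ARNTL, also called BMAL1, pairs with CLOCK or NPAS2, binds E-boxes and activates the Per, Cry and Nr1d genes and the output genes Dbp and Tef. PER and CRY proteins then repress their own activators, while NR1D proteins repress, and ROR proteins activate, genes with ROR elements such as Arntl, Npas2 and Cry1. DBP and TEF bind D-boxes and carry the rhythm to metabolic genes. In mouse liver these transcripts cycle every day, with Dbp, Tef, Per3 and Nr1d2 high in the later part of the light phase, Per2 somewhat later, and Arntl, Npas2 and Cry1 high from late night to early morning.

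Promoter sequences of the members show which of these elements lie next to the start site. RefSeq promoter windows (GRCm38.p6), from 250 bases before to 50 bases after a start, were at hand for 9 of the 10 genes, Per2 being the exception. Both strands were searched for the E-box CACGTG, the E-prime-box CACGTT, the D-box TTATGTAA and the core TAGGTCA of a ROR element. None of these 4 strings contains another. Over 32851 promoter windows of the genome table, 7.2% held the E-box, 4.7% the E-prime-box, 0.9% the D-box and 2.6% the ROR element core. The E-box lay in windows of Cry1, Per1 and Tef, the E-prime-box in those of Cry1 and Nr1d1, the D-box in that of Per3 and the ROR element core in 1 window of Arntl. The windows of 5 genes are shown because together they hold an example of each element, with matches on either strand in capitals.
Cry1 (chr10:85185005-85185304, minus strand): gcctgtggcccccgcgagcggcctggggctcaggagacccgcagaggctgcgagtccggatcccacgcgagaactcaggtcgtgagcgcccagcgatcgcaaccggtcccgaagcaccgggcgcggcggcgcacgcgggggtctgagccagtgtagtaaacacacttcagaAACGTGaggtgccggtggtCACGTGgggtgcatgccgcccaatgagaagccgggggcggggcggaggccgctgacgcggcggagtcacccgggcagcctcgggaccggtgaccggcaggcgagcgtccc
Per1 (chr11:69098699-69098998, plus strand): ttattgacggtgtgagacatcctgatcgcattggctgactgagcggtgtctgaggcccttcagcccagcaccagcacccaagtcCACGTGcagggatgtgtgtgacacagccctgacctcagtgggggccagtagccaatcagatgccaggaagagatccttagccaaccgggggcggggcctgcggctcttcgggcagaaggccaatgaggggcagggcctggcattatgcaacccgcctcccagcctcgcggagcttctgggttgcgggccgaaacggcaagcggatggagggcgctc
Tef (chr15:81811164-81811463, plus strand): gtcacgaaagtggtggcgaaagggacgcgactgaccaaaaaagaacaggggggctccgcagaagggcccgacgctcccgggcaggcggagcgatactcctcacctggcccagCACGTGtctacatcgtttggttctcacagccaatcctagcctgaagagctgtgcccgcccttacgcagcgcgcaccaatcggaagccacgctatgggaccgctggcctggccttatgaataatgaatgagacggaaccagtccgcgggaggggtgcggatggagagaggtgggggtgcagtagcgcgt
Per3 (chr4:151044616-151044915, minus strand): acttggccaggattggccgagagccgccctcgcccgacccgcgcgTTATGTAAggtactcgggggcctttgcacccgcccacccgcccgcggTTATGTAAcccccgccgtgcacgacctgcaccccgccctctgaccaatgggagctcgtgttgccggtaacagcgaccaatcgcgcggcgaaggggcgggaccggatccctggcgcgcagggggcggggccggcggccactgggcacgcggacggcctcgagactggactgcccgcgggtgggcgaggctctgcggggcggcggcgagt
Arntl (chr7:113207261-113207560, plus strand): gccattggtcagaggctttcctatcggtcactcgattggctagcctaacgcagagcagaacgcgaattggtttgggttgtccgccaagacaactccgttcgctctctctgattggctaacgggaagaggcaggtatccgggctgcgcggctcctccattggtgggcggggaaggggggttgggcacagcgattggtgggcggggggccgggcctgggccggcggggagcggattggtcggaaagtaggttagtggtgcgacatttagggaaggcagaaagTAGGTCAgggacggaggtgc
The E-box of Cry1 began 60 bases and its E-prime-box 79 bases before the start site. Per3 held the D-box at 2 places, 205 and 158 bases before its start. A match is a string of letters and does not show binding.

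The arrays carried a liver profile, and of the 14 healthy and vehicle arrays 4 lay nearer another group. Alb, Apoa1, Ttr and 3 other hepatocyte genes averaged between 11.47 and 13.55, and the array medians lay between 24.1 and 24.6 intensity units. Over the brighter genes, healthy mice Hlth_1798 and Hlth_1807 were closer to the vehicle mean than to the healthy mean, and vehicle mice without HCC Diet_Veh_low_794 and Diet_Veh_low_1819 were closer to the healthy mean. Results that rest on these arrays are given with and without them. The 4 arrays were picked by these distances, so leaving them out draws healthy and vehicle mice apart by choice. Calls gained that way are not counted as support. Npas2 (mean 4.72), unlike the other members, lay below the median gene mean of 4.90, and the lowest value on any array was 3.79, so low values are compressed toward background. In bulk liver, fewer cells of a type and less RNA per cell cannot be told apart.

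Dbp, which encodes a D-box activator and is a direct target of ARNTL, divided the 30 mice into 2 sets. It lay between 7.70 and 10.20 in 16 mice and between 4.37 and 6.19 in the other 14, with a gap of 1.5 between them. The 16 mice with the highest Dbp were also the 16 with the lowest Arntl, the gene of the activator itself, which lay between 4.31 and 5.46 in them and between 5.97 and 7.58 in the other 14. The widest gap of Arntl itself lay elsewhere, between 6.30 and 6.82, with 20 mice below and 10 above. Nr1d2, which encodes the repressor REV-ERB beta, had its highest values in the same mice but showed no gap there. It lay between 9.90 and 10.75 in the mice with high Dbp and between 6.79 and 9.86 in the others. Of the 16 mice, 5 had received aspirin with clopidogrel, 9 sulindac and 2 were vehicle mice with HCC, while none was a vehicle mouse without HCC or a healthy mouse. The plot of Arntl and Cry1 against Dbp shows the division for each mouse.

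**Figure D1:**
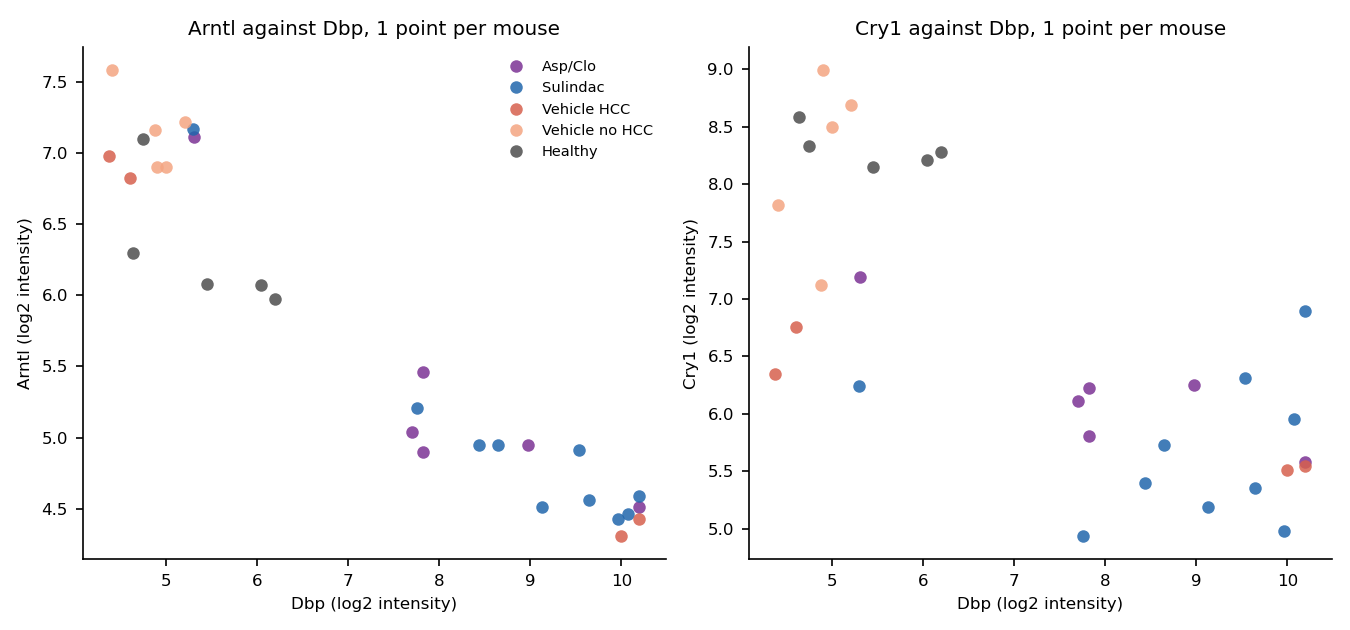
Arntl (left) and Cry1 (right) against Dbp, all as log2 intensity, 1 point per mouse, coloured by group. The 16 mice with Dbp of at least 7.70 have Arntl of at most 5.46, whereas for Cry1 the same mice overlap the others, between 4.94 and 6.90 against between 6.24 and 8.99.

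Among the output genes, Dbp was high in most drug-treated mice and in part of the mice with HCC. Its values ran from 5.30 over a median of 7.82 to 10.20 under aspirin with clopidogrel (n = 6) and from 5.29 over a median of 9.33 to 10.20 under sulindac (n = 10). In vehicle mice with HCC it was 4.60, 4.37, 10.00 and 10.20 in mice Diet_Veh_high_798, Diet_Veh_high_1770, Diet_Veh_high_1831 and Diet_Veh_high_2088. Vehicle mice without HCC had 4.40, 5.00, 4.88, 5.20 and 4.90, and healthy mice had 4.74, 6.04, 4.63, 5.45 and 6.19. All vehicle mice without HCC thus lay below all drug-treated mice, while mice with HCC stood at both ends. Diet_Sulin_15 (5.29) and Diet_AspClo_63 (5.30), the lowest of their groups, were just above the highest vehicle mouse without HCC (5.20) and within the range of the healthy mice.

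Tef, a close relative of Dbp, overlapped between all groups. It ran from 8.51 over a median of 9.17 to 10.37 under aspirin with clopidogrel and from 7.66 over 9.61 to 10.57 under sulindac. Mice with HCC had 7.40, 7.40, 10.41 and 9.86 in the order given above, and mice without HCC had 8.10, 9.10, 8.47, 8.72 and 8.98. Healthy mice had 6.82, 9.72, 9.25, 9.54 and 9.91, the first value in mouse Hlth_1798. Unlike Dbp, Tef was therefore high in 4 of 5 healthy mice.

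**Figure D2:**
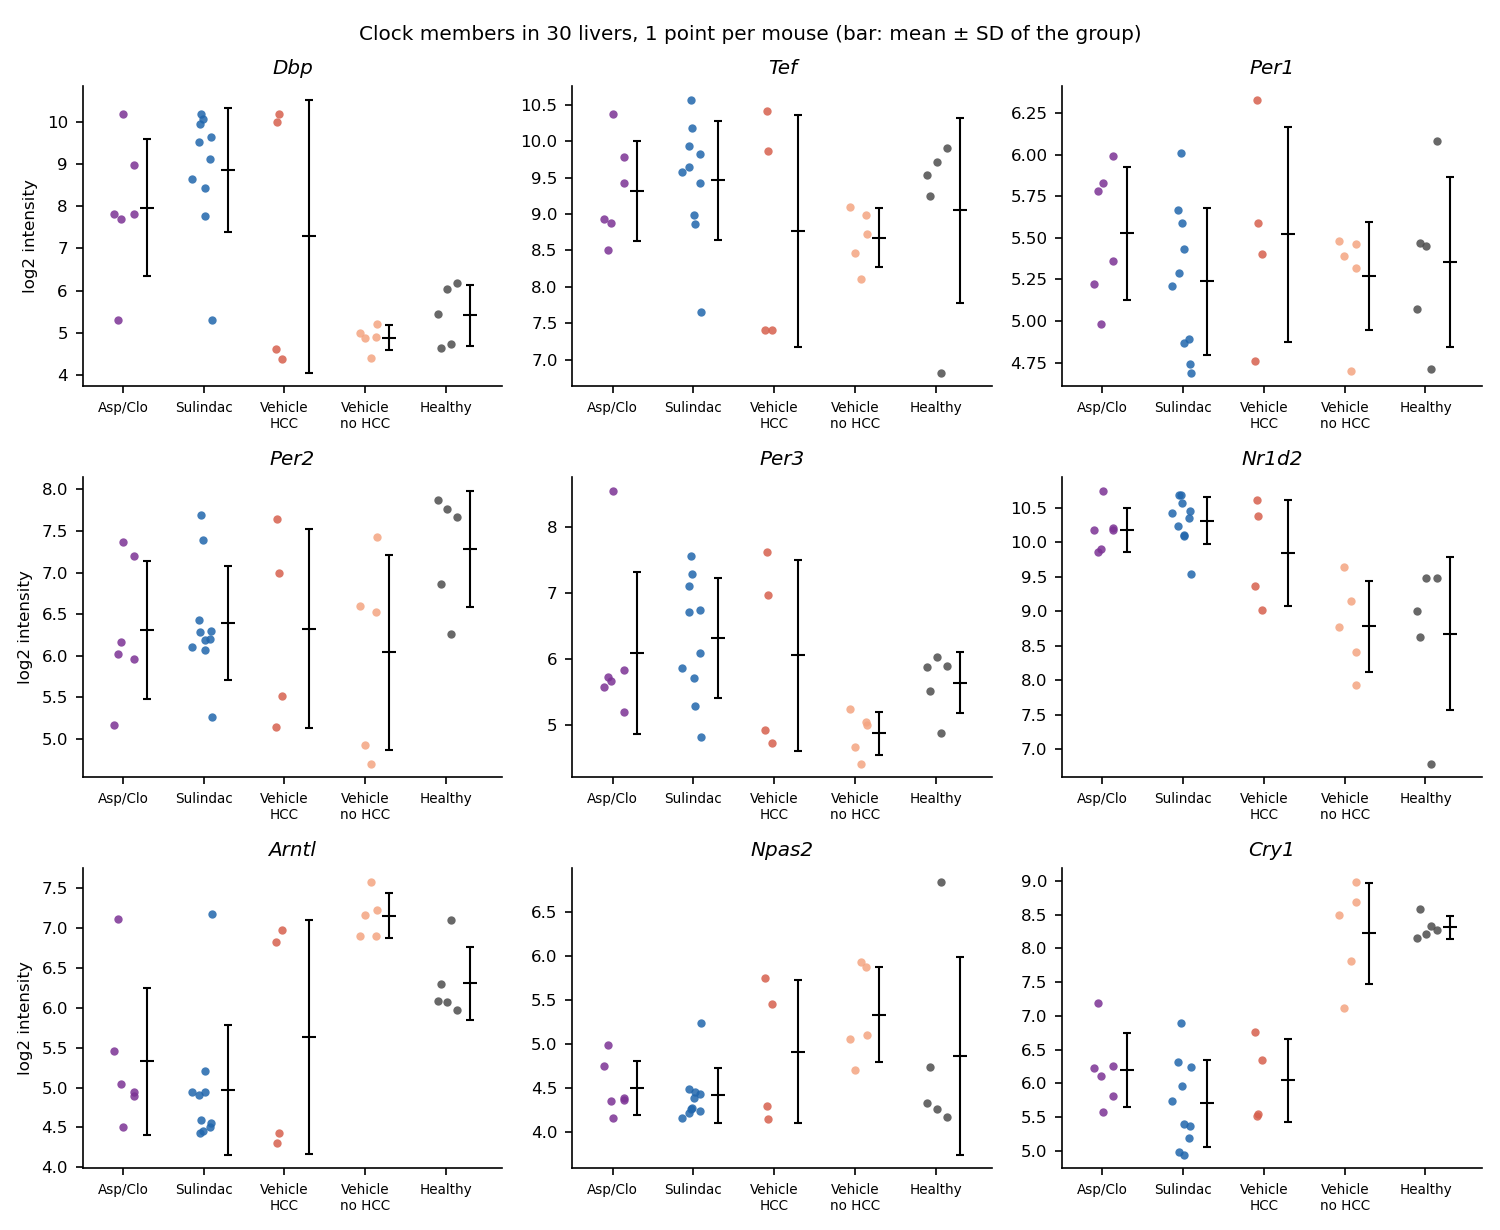
Log2 intensity of the 9 members, 1 point per mouse, by group, with the group mean and SD as a bar beside the points. Dbp, Per3 and Arntl each fall into separate high and low values in the 4 mice with HCC, and Cry1 is at or above 7.12 in every healthy mouse and every vehicle mouse without HCC.

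The period genes, which encode the repressors that pair with CRY, differed among themselves. Per3 had its highest values in mice with high Dbp. It ran from 5.19 over 5.69 to 8.56 under aspirin with clopidogrel and from 4.82 over 6.41 to 7.56 under sulindac, and was 4.92, 4.73, 7.62 and 6.97 in mice with HCC. It was 4.41, 5.24, 4.66, 5.00 and 5.04 in mice without HCC and 4.88, 6.03, 5.52, 5.88 and 5.89 in healthy mice. Mice Diet_Veh_high_1831 and Diet_Veh_high_2088 with HCC were thus above every vehicle mouse without HCC and every healthy mouse. Per2, whose protein is the best studied of the period repressors, averaged 6.31 ± 0.83 (SD, n = 6) under aspirin with clopidogrel, 6.39 ± 0.69 (n = 10) under sulindac, 6.32 ± 1.19 (n = 4) with HCC, 6.04 ± 1.17 (n = 5) without HCC and 7.29 ± 0.70 (n = 5) in healthy livers. Its highest value of all mice, 7.87, was in healthy mouse Hlth_1965. Per1, which is also induced acutely by glucocorticoids and other stimuli, had group means between 5.24 and 5.53 and overlapped in all groups.

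Nr1d2 was high in drug-treated mice other than Diet_Sulin_15, whose 9.54 lay below the highest vehicle mouse without HCC (9.64). It ran from 9.86 over 10.18 to 10.75 under aspirin with clopidogrel and from 9.54 over 10.39 to 10.69 under sulindac. It was 9.36, 9.02, 10.61 and 10.38 in mice with HCC, 9.15, 8.77, 9.64, 8.41 and 7.93 in mice without HCC, and 6.79, 9.48, 8.63, 9.0 and 9.49 in healthy mice. Every drug-treated mouse therefore stood above every healthy mouse. It averaged 10.18 ± 0.32 (SD, n = 6) under aspirin with clopidogrel, 10.32 ± 0.35 (n = 10) under sulindac and 9.84 ± 0.77 (n = 4) with HCC. The averages of 8.78 ± 0.66 (n = 5) without HCC and 8.68 ± 1.11 (n = 5) in healthy livers did not differ beyond their spread.

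Arntl and Npas2, the activators of the loop, had the opposite pattern, Npas2 only outside the healthy mice. Arntl ran from 4.51 over 4.99 to 7.11 under aspirin with clopidogrel and from 4.43 over 4.75 to 7.17 under sulindac, the highest value of each group being in mice Diet_AspClo_63 and Diet_Sulin_15. It was 6.82, 6.98, 4.31 and 4.43 in mice with HCC, 7.58, 6.90, 7.16, 7.22 and 6.90 in mice without HCC, and 7.10, 6.07, 6.30, 6.08 and 5.97 in healthy mice. Mice Diet_Veh_high_1831 and Diet_Veh_high_2088 had the lowest Arntl of all vehicle mice, and mice Diet_Veh_high_798 and Diet_Veh_high_1770 lay close to the mice without HCC. Npas2, the partner that can replace CLOCK, was near background in most drug-treated mice, with medians of 4.37 under aspirin with clopidogrel and 4.33 under sulindac. It was 5.75, 5.45, 4.29 and 4.14 with HCC and between 4.7 and 5.93 without HCC. In healthy livers it was 6.84 in mouse Hlth_1798 and between 4.17 and 4.73 in the other 4 mice.

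Cry1, a repressor gene with both E-boxes and ROR elements in its control regions, separated the groups in another way. It ran from 5.58 over 6.17 to 7.19 under aspirin with clopidogrel and from 4.94 over 5.56 to 6.90 under sulindac. Mice with HCC had 6.76, 6.35, 5.51 and 5.55, mice without HCC had 7.82, 8.50, 7.12, 8.69 and 8.99, and healthy mice had 8.33, 8.21, 8.58, 8.15 and 8.28. All 5 healthy mice were above all mice of both drug arms and all mice with HCC, and the spread among them was small (8.31 ± 0.16, SD). Mice Diet_Veh_high_798 and Diet_Veh_high_1770 with HCC and sulindac mouse Diet_Sulin_15, which had low Dbp and high Arntl, had Cry1 of 6.76, 6.35 and 6.24, below the 7.12 to 8.99 of the vehicle mice without HCC. Cry1 therefore did not follow the division by Dbp in these mice. Over all mice its Spearman rank correlation was -0.69 with Dbp and 0.73 with Arntl. The only drug-treated Cry1 value above the lowest vehicle mouse without HCC was 7.19, in mouse Diet_AspClo_63 under aspirin with clopidogrel.

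**Figure D3:**
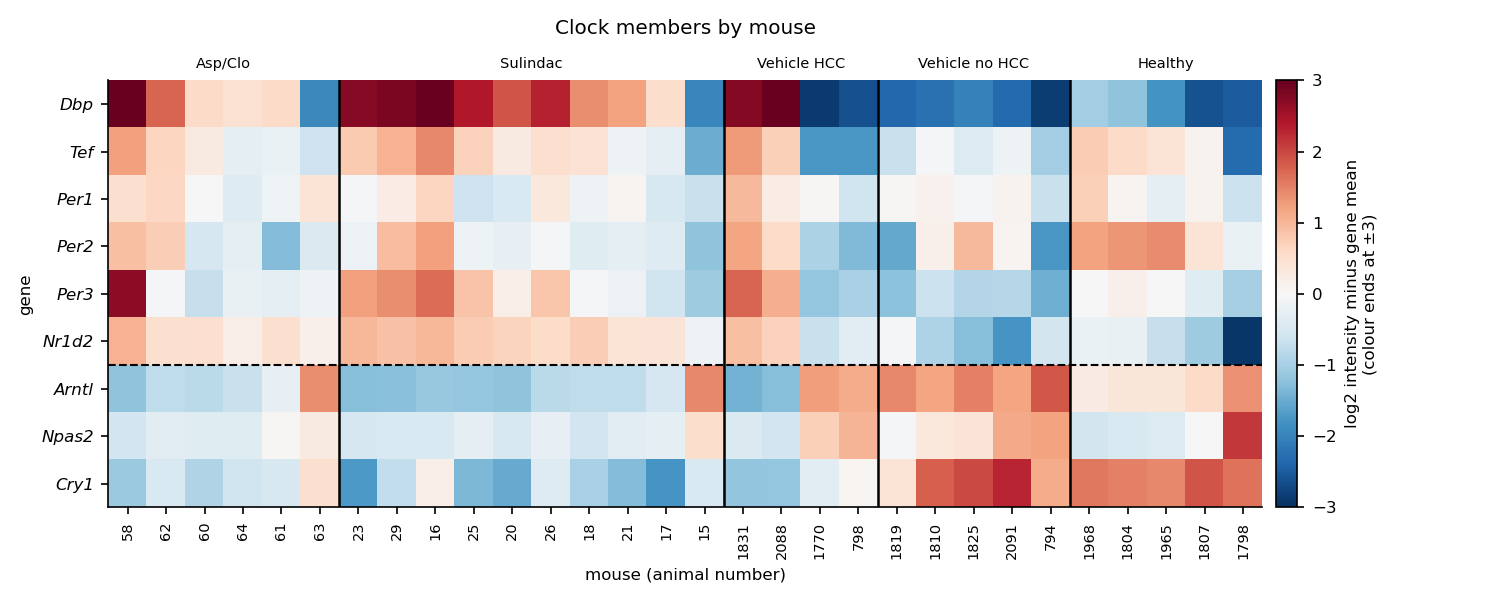
Log2 intensity of each member minus its mean over 30 mice, with mice in columns by group, ordered within a group by the mean of the 6 members Dbp to Nr1d2 minus the mean of Arntl, Npas2 and Cry1, and with a dashed line between these sets of genes. Drug-treated mice other than Diet_Sulin_15 and Diet_AspClo_63 and mice Diet_Veh_high_1831 and Diet_Veh_high_2088 with HCC are red for Dbp and Nr1d2 and blue for Arntl, while healthy mice are red for Cry1.

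As a description of each mouse, the mean of Dbp, Tef, Per1, Per2, Per3 and Nr1d2 was set against the mean of Arntl, Npas2 and Cry1. The difference ran from 0.44 over a median of 2.18 to 4.10 under aspirin with clopidogrel and from 0.00 over 2.92 to 3.67 under sulindac. In mice Diet_Veh_high_1831 and Diet_Veh_high_2088 with HCC it was 4.06 and 3.63, and in mice Diet_Veh_high_798 and Diet_Veh_high_1770 it was -0.41 and -0.19. It lay between -1.20 and 0.00 in mice without HCC and between -1.72 and 1.40 in healthy mice, where mouse Hlth_1798 had the lowest value of all 30. Within groups, the SD ran from 0.46 for Per1 to 1.64 for Dbp. The spread of Dbp among vehicle mice is part of what chose it, so this is a description.

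The comparison of vehicle mice with and without HCC asked how the liver around tumours differs from liver of the same diet without them. Dbp averaged 7.29 ± 3.24 (SD, n = 4) with HCC and 4.88 ± 0.30 (n = 5) without it, a difference of 2.42 (SE 1.05). Cry1 averaged 6.04 ± 0.62 with HCC and 8.23 ± 0.75 without it, a difference of -2.18 (SE 0.38), and was the 1 member whose groups did not overlap, as was the case for 3.0% of all genes. The differences were -1.52 (SE 0.542) for Arntl, 1.19 (SE 0.61) for Per3 and 1.06 (SE 0.407) for Nr1d2, so that 5 of 9 members differed by more than 1, a size reached by 0.415% of all genes. Since this contrast chose the genes, nothing is read from that share.

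The size of the Dbp difference rested on 2 of the 4 mice with HCC. Without mouse Diet_Veh_high_1831 it was 1.52 and without mouse Diet_Veh_high_2088 it was 1.45, against 3.31 without mouse Diet_Veh_high_798 and 3.39 without mouse Diet_Veh_high_1770. Only 3 of the 9 members then differed by more than 1 without mouse Diet_Veh_high_1831 or without mouse Diet_Veh_high_2088. Cry1 kept a difference between -2.46 and -1.99 when any 1 mouse was left out. Tef had a difference of 0.10, which was -0.45 without mouse Diet_Veh_high_1831 and 0.55 without mouse Diet_Veh_high_798. The summed level of the 3 erythroid markers Hba-a1, Hbb-b2 and Alas2 was 13.41, 12.12, 12.10 and 13.30 in mice Diet_Veh_high_798, Diet_Veh_high_1770, Diet_Veh_high_1831 and Diet_Veh_high_2088, and its part in the difference was not tested. Without mice Diet_Veh_low_794 and Diet_Veh_low_1819, which the set of 4 arrays holds, Cry1 differed by -2.68 and Dbp by 2.26.

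In the comparison of sulindac with vehicle, 4 of 9 members differed by more than 1, a size reached by 0.146% of all genes. Dbp averaged 8.87 ± 1.48 (SD, n = 10) under sulindac and 5.95 ± 2.37 (n = 9) under vehicle, a difference of 2.91 (SE 0.719). Nr1d2 differed by 1.06 (SE 0.279), Arntl by -1.50 (SE 0.371) and Cry1 by -1.56 (SE 0.26). Per1 differed by -0.14 (SE 0.202) and Per2 by 0.23 (SE 0.388). This comparison also chose Cry1, and its values are a description.

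Which vehicle mice stood on the other side set the size of these differences. Against vehicle without HCC alone, the sulindac difference was 3.99 for Dbp, -2.53 for Cry1 and -2.18 for Arntl. Against vehicle with HCC alone it was 1.57 for Dbp, -0.34 for Cry1 and -0.66 for Arntl, and Dbp was then the 1 member past a difference of 1. Without the 4 arrays the differences from all vehicle mice were 2.54 for Dbp, -1.49 for Cry1 and -1.25 for Arntl. The summed erythroid markers, measured for 3 of 3 genes, ranged from 13.41 to 13.83 under sulindac, against 12.10 to 13.41 in vehicle mice with HCC and 11.91 to 13.07 in those without, and their part in these differences was not tested.

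The comparison of aspirin and clopidogrel with vehicle was not used to choose the genes, but it shares its vehicle mice with the comparisons above. No member passed the adjusted p of 0.05 in limma over 17097 genes, where 1.96% of all genes did. At an unadjusted p under 0.05 there were 5 of 9 members, against 14.6% of all genes. Values of these same vehicle mice chose Cry1 and Dbp, so nothing is read from that share. The p-values of these genes below are no independent result either. Cry1 came nearest, with 6.20 ± 0.55 (SD, n = 6) under aspirin with clopidogrel and 7.25 ± 1.32 (n = 9) in vehicle livers, a difference of -1.06 (SE 0.298, limma adjusted p = 0.0609). Nr1d2 differed by 0.93 (SE 0.32, adjusted p = 0.14), Arntl by -1.15 (SE 0.426, adjusted p = 0.184) and Dbp by 2.02 (SE 0.825, adjusted p = 0.234). Without the 4 arrays Nr1d2 (limma adjusted p = 0.0124) and Cry1 (0.0491) passed, but those arrays were picked by their distance to the healthy and vehicle means. Cry1 also passed without any 1 of vehicle mice Diet_Veh_low_1819, Diet_Veh_high_1831 and Diet_Veh_high_2088, sulindac mouse Diet_Sulin_16 and mouse Diet_AspClo_63, with a lowest limma adjusted p of 0.0269, and Nr1d2 without healthy mouse Hlth_1798 (0.0398). Against vehicle without HCC alone the difference of Cry1 was -2.03, given with no test because the contrast of the vehicle groups chose it, whereas against vehicle with HCC alone it was 0.15 and its direction turned. Dbp differed by 3.09 from vehicle without HCC and by 0.67 from vehicle with HCC. The summed erythroid markers ranged from 13.51 to 13.88 under aspirin with clopidogrel and from 11.91 to 13.41 in vehicle mice, and their part was not tested.

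Against healthy livers, mice under aspirin with clopidogrel differed in 2 of 9 members, 1 higher and 1 lower, where 2.77% of all genes were called by limma, 1.64% as higher and 1.13% as lower. Cry1 fell to 6.20 ± 0.55 (SD, n = 6) under aspirin with clopidogrel, against 8.31 ± 0.16 (n = 5) in healthy livers, a difference of -2.11 (SE 0.343, limma adjusted p = 0.000653), and was lower in 6 of 6 mice than in any healthy mouse. Nr1d2 rose to 10.18 ± 0.32 (n = 6), against 8.68 ± 1.11 (n = 5) in healthy livers, a difference of 1.51 (SE 0.367, limma adjusted p = 0.0209), higher in 6 of 6 mice. Both were among the 2.01% of genes whose groups did not overlap. Dbp differed by 2.56 (SE 0.948, limma adjusted p = 0.163), and 3 of 9 members had an unadjusted p under 0.05, against 14.8% of all genes.

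The call of Cry1 held without the 4 arrays (difference -2.02, limma adjusted p = 0.00189) and without any 1 mouse (highest limma adjusted p = 0.00295). Nr1d2 lost its call without healthy mouse Hlth_1798 (difference 1.03, limma adjusted p = 0.0519), without mouse Diet_AspClo_58 (1.39, 0.062), without the 4 arrays (0.86, 0.0829) and with only these groups in the fit (limma adjusted p = 0.166). A second probe set of Nr1d2 gave a difference of 1.41. Second probe sets, all dimmer, gave 0.06 for Arntl against -0.98 with the one used, -0.26 for Per2 against -0.97, -0.03 for Npas2 against -0.37 and 0.06 for Tef against 0.27, while the other 4 of Per3 ran from 0.06 to 1.02 against 0.45. The summed markers of erythroid cells (3 of 3 genes measured) ranged from 13.51 to 13.88 under aspirin with clopidogrel and from 11.67 to 12.58 in healthy livers, and those of endothelial cells (4 of 4) from 10.65 to 11.14 and from 9.87 to 10.63 in the same groups. Hepatocyte markers (6 of 6) ranged from 15.54 to 15.65 and from 15.45 to 15.64 there. The part of these markers in the differences was not tested.

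Between the drug arms no member passed, where 0.877% of all genes were called by limma, and no member had an unadjusted p under 0.05, against 10.8% of all genes. Dbp averaged 7.97 ± 1.63 (SD, n = 6) under aspirin with clopidogrel and 8.87 ± 1.48 (n = 10) under sulindac, a difference of -0.90 with a 95% interval from -2.55 to 0.76. Cry1 differed by 0.50 (interval -0.10 to 1.10), Arntl by 0.35 (-0.50 to 1.21) and Nr1d2 by -0.14 (-0.78 to 0.51). These intervals include differences as large as several of those above, so the arms were not shown to be alike.

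Between vehicle and healthy mice no member passed either, where limma called 0.0117% of all genes, and 2 of 9 members had an unadjusted p under 0.05, against 6.73% of all genes. Values of these vehicle mice chose Cry1 and Dbp, so nothing is read from that share. Cry1 averaged 7.25 ± 1.32 (SD, n = 9) in vehicle mice and 8.31 ± 0.16 (n = 5) in healthy livers, a difference of -1.05 (SE 0.316, limma adjusted p = 0.407). With vehicle mice with HCC alone the difference was -2.27 and with those without HCC alone it was -0.08. The contrast of these vehicle groups chose Cry1, so both are given with no test. Per2 differed by -1.12 (SE 0.471, limma adjusted p = 0.665), with 6.16 ± 1.12 in vehicle mice and 7.29 ± 0.70 in healthy ones. The 6 comparisons are shown together in the plot of differences.

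**Figure D4:**
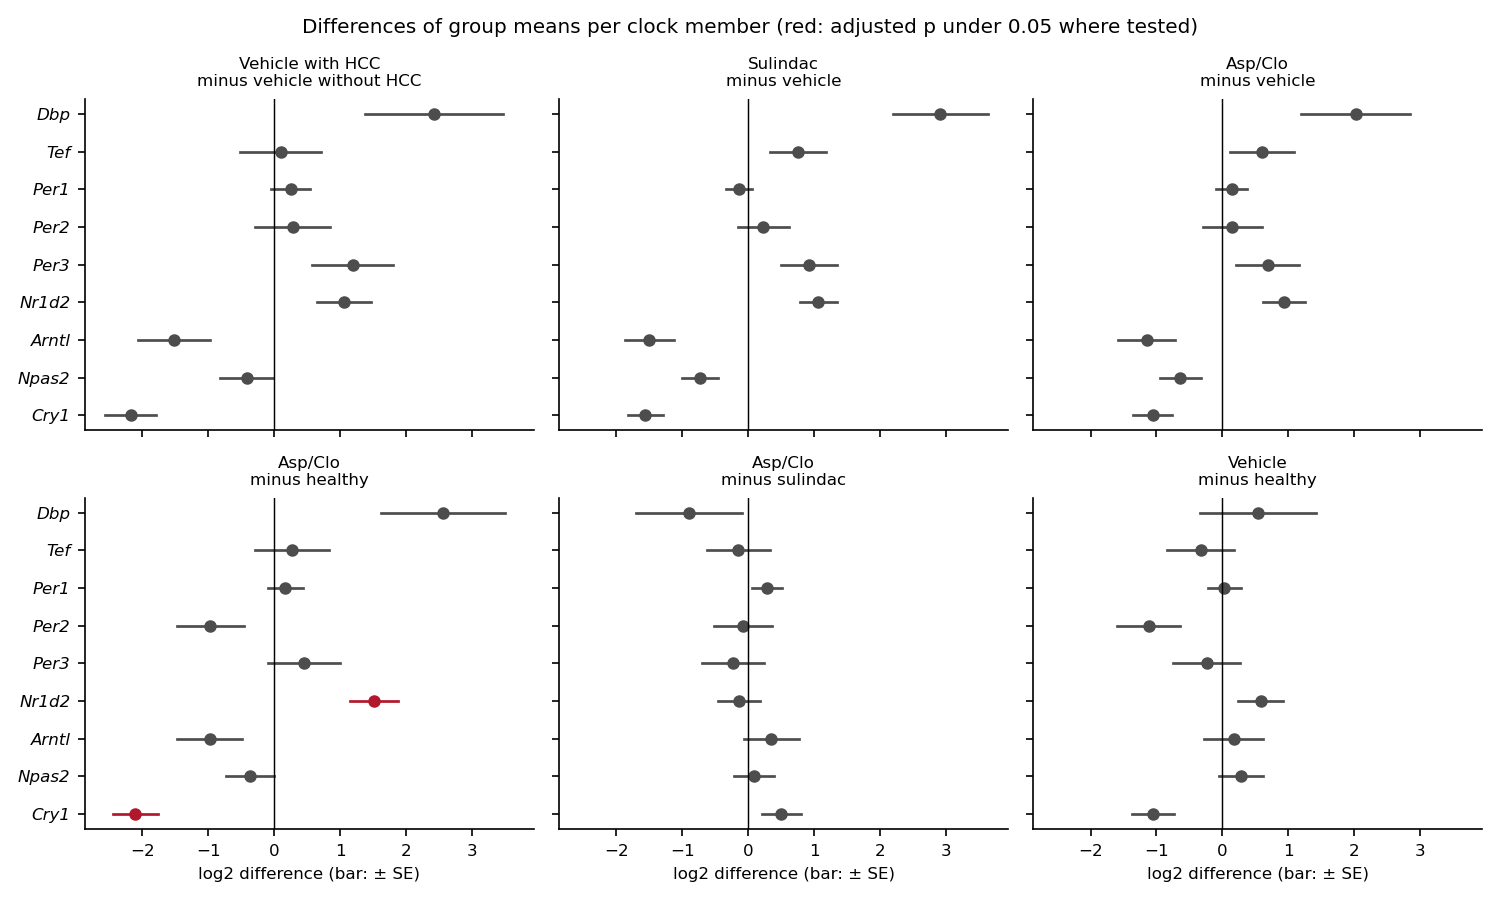
Difference of group means in log2 intensity for each member and comparison, with the SE from limma as a bar, Asp/Clo standing for aspirin with clopidogrel. Red marks the 2 members with an adjusted p under 0.05, Nr1d2 and Cry1 for Asp/Clo minus healthy. The comparisons of HCC and of sulindac chose the genes and were not tested.

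Other genes of the loop were followed through a list of 21, of which 17 were measured. It holds Clock, Cry2, the ROR receptors, the repressors Bhlhe40, Bhlhe41, Ciart and Nfil3, the activator Hlf and kinases and ubiquitin ligases that act on PER and CRY. None of the 17 passed in any of the 6 comparisons in limma, with between 0 and 4 at an unadjusted p under 0.05, beside 0.0877% of all genes called for HCC, 0.199% for sulindac and the shares given above for the others. At an unadjusted p the shares of all genes were 8.87% for HCC, where 4 genes of the list passed, and 10.4% for sulindac, where 3 did. The median difference of the list lay between -0.05 and 0.11, and the medians of all genes between -0.008 and 0.005. Rorb, Bhlhe41, Ciart, Arntl2 and Fbxl21 had all group means below the median gene mean of 4.90, so differences in them are compressed toward background. Nfil3, which encodes a repressor at D-boxes and was chosen after its values were seen, averaged 6.62 ± 0.40 (SD, n = 10) under sulindac and 7.76 ± 1.16 (n = 9) under vehicle, a difference of -1.14 (SE 0.258, limma adjusted p = 0.0586). It passed without any 1 of vehicle mice Diet_Veh_high_798, Diet_Veh_high_1831 and Diet_Veh_high_2088 and sulindac mouse Diet_Sulin_15. With 1 mouse left out, its limma adjusted p ran from 0.00357 to 0.151. Since its values chose Nfil3, nothing is read from these calls. Without the 4 arrays its limma adjusted p was 0.189.

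From a list of 20 clock output genes of liver, 17 were measured, and 3 of them passed in some comparison. Elovl3, which elongates very long chain fatty acids, fell to 8.57 ± 1.75 (SD, n = 6) under aspirin with clopidogrel, against 10.99 ± 1.16 (n = 9) in vehicle mice and 11.34 ± 0.33 (n = 5) in healthy livers. Its differences were -2.42 (SE 0.498, limma adjusted p = 0.00946) and -2.77 (SE 0.572, limma adjusted p = 0.00621), and the call held without any 1 mouse in both. Mice Diet_AspClo_60 and Diet_AspClo_62, at 10.71 and 10.67, lay within the vehicle range of 8.95 to 12.46. The other mice of that arm lay between 6.35 and 8.12. Elovl3 averaged 9.99 ± 0.88 (n = 4) in vehicle mice with HCC and 11.79 ± 0.58 (n = 5) in those without, so the vehicle average mixes unlike groups. Lonrf3, which encodes a ring finger protein, fell to 5.66 ± 0.22 (n = 6) under aspirin with clopidogrel, against 6.47 ± 0.86 (n = 9) in vehicle mice (limma adjusted p = 0.0147) and 6.86 ± 0.29 (n = 5) in healthy livers (limma adjusted p = 0.00108). Against vehicle it lost its call without vehicle mouse Diet_Veh_low_1810 or Diet_Veh_low_1825, with a highest limma adjusted p of 0.0513. The vehicle mice with HCC, at 5.68 ± 0.41 (n = 4), were close to the mice under aspirin with clopidogrel, so the vehicle difference lay with the mice without HCC. Lonrf3 was placed on the list with its fall under HCC and sulindac known, so it is no independent evidence of the list's direction. Its call against the same vehicle mice is no independent result either.

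Tspan4, a tetraspanin gene, averaged 8.57 ± 0.44 (SD, n = 6) under aspirin with clopidogrel, against 9.54 ± 0.16 (n = 5) in healthy livers, a difference of -0.97 (SE 0.241, limma adjusted p = 0.0237). Vehicle mice averaged 8.82 ± 0.49 (n = 9) and sulindac mice 8.83 ± 0.41 (n = 10), so averages below the healthy one were shared by the groups on CD-HFD. Tspan4 lost its call against healthy livers without any 1 of 6 mice, namely healthy mice Hlth_1965, Hlth_1968 and Hlth_1807 and mice Diet_AspClo_61, Diet_AspClo_63 and Diet_AspClo_64, with a highest limma adjusted p of 0.0751. Against healthy livers 3 of 17 output genes were thus lower, beside 1.13% of all genes, and 0 higher, beside 1.64%, under aspirin with clopidogrel. That count includes Lonrf3, placed on the list with its fall in other comparisons known, and Tspan4, whose call depended on single mice. Nothing is read from it. Against vehicle 2 were lower, beside 0.977% of all genes, and 0 higher. Of these 2, 1 was Lonrf3, which comparisons with the same vehicle mice had placed on the list, so nothing is read from that count. In the HCC and the sulindac comparison 1 gene of the list, Lonrf3, was lower and none higher, beside 0.0819% of all genes in each, but these comparisons placed it on the list and nothing is read from that count. It averaged 5.68 ± 0.41 (SD, n = 4) with HCC and 7.10 ± 0.47 (n = 5) without HCC. Usp2, a deubiquitinase gene regulated by the clock and chosen after its values were seen, spanned 4.26 to 8.91 within the 4 mice with HCC and 4.55 to 9.77 within the 10 sulindac mice, with no call in any comparison.

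**Figure D5:**
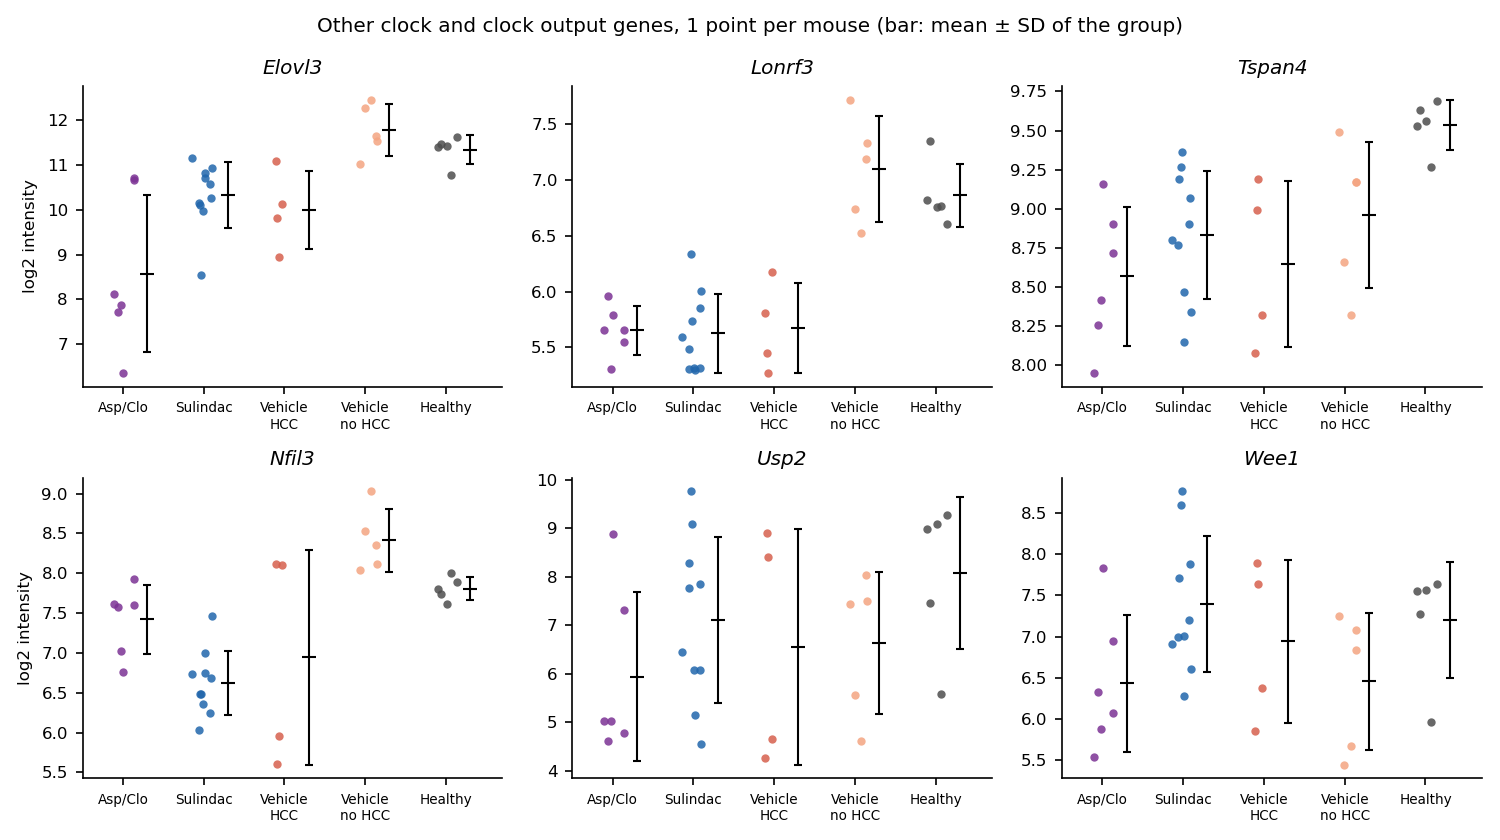
Log2 intensity of Elovl3, Lonrf3, Tspan4, Nfil3, Usp2 and Wee1, 1 point per mouse, by group, with the group mean and SD as a bar. Lonrf3 lies between 5.27 and 6.34 in drug-treated mice and mice with HCC and between 6.53 and 7.72 in vehicle mice without HCC and healthy mice, while Usp2 and Wee1 span wide ranges within the groups.

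Genes other than the members were ranked by how their order over the 30 mice resembled that of Dbp, Arntl and Cry1, among the 8331 brighter genes, whose mean reached that of the median gene. The measure was Spearman's rank correlation, given as a description since mice share their groups. Most like Dbp were the fructose transporter gene Slc2a5, the connexin gene Gjb2 and the glutamine transporter gene Slc38a3, all with rho 0.84, followed by Mtss1 (0.82) and Gmnn (0.81). Most opposed to it were Skil and the choline kinase gene Chka, both with rho -0.92, and Net1 (-0.91). With group means removed, these 8 genes kept values between 0.63 and 0.89 or between -0.86 and -0.72.

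For Arntl the most similar genes were Chka (rho 0.91), Lgalsl (0.90), Desi2, Lrfn3 and Net1 (0.87 each), and the most opposed were Clmn (-0.82), Slc2a5 and Hdac11 (-0.80 each). Cry1 had Lonrf3 (0.89), Desi2 (0.85), Lnx2 (0.81), Slc45a3 (0.80) and Ces1d (0.78) as its nearest genes, and Gnat1 (-0.83), Nit1 (-0.80) and Mpdz (-0.79) at the other end. With group means removed, the 5 nearest genes of Cry1 had values from 0.37 for Lnx2 to 0.69 for Lonrf3. Chka and Net1 stood at the lower end for Dbp and the upper end for Arntl.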

How the data were processed

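The authors, per the labels' processing notes and the design text, ran RMA with quantile normalization in ExpressionFileCreator on one-colour Affymetrix HT MG-430 PM arrays and deposited an intensity for each probe set. Those sources name no version. Values are positive and linear, so log2 was taken of the deposited intensity. Groups followed the sample titles, since the design text counts fewer vehicle mice. Of 45141 probe sets, 28898 carry 1 gene symbol, and 28689 matched RefSeq (GRCm38.p6) by Entrez identifier, giving 17097 genes with the probe set of highest mean. No gene was removed for low intensity.

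A model with 5 group means was fitted to 30 arrays with limma 3.58.1 in R 4.3.3 (25 residual and 2.37 prior degrees of freedom), with Benjamini-Hochberg adjustment over 17097 genes and a threshold of 0.05. Vehicle is the mean of its 9 mice unless a group is named. The fit was tested on simulated data in which genes varied independently, unlike the members, so that test does not bear on their calls. Members, lists and tests were chosen with earlier results of these data known. Besides the members, genes are singled out if they had one of the 5 smallest p past the threshold per list and comparison, or the 5 highest or 3 lowest rank correlations with Dbp, Cry1 or Arntl. Nfil3, Usp2 and Wee1 met neither rule and are shown outside it. Nfil3 and Usp2 were chosen after their values were seen. The alternatives were only the compared groups in the fit, the mean of all probe sets, dim genes left out, trended robust variances, array weights, each mouse left out, 4 arrays left out, and each vehicle group alone. Replicates are mice, and their number limits the precision.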

Additional observations from a re-analysis of the deposited data

Results flagged for a closer look

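Within single groups, 9 values of members stood far from the other mice of their group, of 45 gene and group combinations examined, where chance gives about 1 in 20 for a single independent combination. The members were measured in the same mice, so the 45 are not independent. Sulindac mouse Diet_Sulin_15 accounted for 4 of them. It had the lowest Dbp of 10 mice (5.29, next 7.76), the lowest Nr1d2 (9.54, next 10.09), the highest Arntl (7.17, next 5.21) and the highest Npas2 (5.24, next 4.48). Its summed cholangiocyte markers (4 of 4 genes) were 7.26, against at most 6.80 in the other 9 sulindac mice, and its summed erythroid markers (3 of 3) were 13.58 in a group range of 13.41 to 13.83. The part of neither in these values was tested.

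Healthy mouse Hlth_1798 had the lowest Tef of 5 mice (6.82, next 9.25) and the highest Npas2 (6.84, next 4.73), and its array lay nearer the vehicle mean over the brighter genes. Its summed Kupffer cell and macrophage markers (5 of 5 genes) were 12.53, against 9.23 to 10.74 in the other 4 healthy mice, and their part was not tested. Under aspirin with clopidogrel, mouse Diet_AspClo_63 had the highest Arntl of 6 mice (7.11, next 5.46) and mouse Diet_AspClo_58 the highest Per3 (8.56, next 5.83). Vehicle mouse Diet_Veh_low_794 without HCC had the lowest Per1 of 5 mice (4.7, next 5.32).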

How the results depend on the processing

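No paired analysis was possible because the animal numbers in the labels are not shared between groups. The text above gives the calls that change without 1 mouse. Of 1992 recomputed differences of single members, 1939 kept their direction and side of the threshold or, untested, moved by less than 1 SD, 13 gained and 4 lost a call, 3 untested ones moved by more than 1 SD, and 33 tested ones, none called in either setting, changed sign.

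Uncalled differences changed sign under several alternatives. Among the untested ones, for HCC, Per2 was -0.53 without the 4 arrays and -0.20 with array weights, and Tef was -0.16 without the 4 arrays, -0.41 with array weights and -0.45 to 0.55 without 1 mouse. Without 1 mouse Per1 was -0.02 to 0.50 and Per2 -0.16 to 0.68 for HCC, and Per2 for sulindac was -0.16 without the 4 arrays. For aspirin with clopidogrel against vehicle, Cry1 was 0.15 and Per2 -0.01 against vehicle with HCC alone, and Per2 was -0.24 without the 4 arrays and -0.06 to 0.38 without 1 mouse. Between the drug arms Per3 was 0.02 with the mean of all probe sets, and without 1 mouse Tef was -0.36 to 0.01, Per2 -0.29 to 0.15, Arntl 0.00 to 0.60 and Npas2 -0.01 to 0.18. Against healthy livers, aspirin with clopidogrel gave Tef -0.17 and Npas2 0.04 with array weights, and Tef -0.41, Per1 -0.01 and Npas2 0.25 without the 4 arrays. Without 1 mouse these were -0.29 to 0.48 for Tef, -0.04 to 0.63 for Per3 and -0.54 to 0.13 for Npas2. For vehicle against healthy, Dbp was -0.18 and Per1 -0.15 with array weights, Per1 -0.06 and Nr1d2 -0.11 without the 4 arrays, Dbp -0.53 and Per1 -0.08 for vehicle without HCC, Per3 0.42 and Arntl -0.67 for vehicle with HCC, and Per1 -0.14 to 0.21 without 1 mouse.

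The 5 members differing by more than 1 for HCC became 2 with the mean of all probe sets, 3 with array weights and 3 to 5 without 1 mouse. For sulindac the 4 became 1 against vehicle with HCC alone, 5 against vehicle without HCC, 6 with array weights and 3 to 5 without 1 mouse. Of 0 members called for aspirin with clopidogrel against vehicle there were 1 without dim genes, 2 with array weights, 2 without the 4 arrays and 0 to 1 without 1 mouse. Values of the same vehicle mice had chosen Cry1, so these counts are no independent result. Against vehicle without HCC alone the count was 1, namely Cry1. The contrast of the vehicle groups had chosen Cry1, so nothing is read from that count. Against healthy livers the 2 became 1 with only the groups compared, 1 without the 4 arrays and 1 to 2 without 1 mouse. For vehicle against healthy the 0 became 1 with HCC mice alone, namely Cry1, which low values in those mice had chosen, and stayed 0 without 1 mouse, as it did between the drug arms.

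Of the other clock genes, 0 were called in every comparison. This became 1 for sulindac without dim genes, with array weights and against vehicle without HCC. It became 1 for aspirin with clopidogrel against vehicle with the mean of all probe sets, with array weights and against vehicle without HCC. Against healthy livers it became 1 with the mean of all probe sets, 1 without dim genes, 2 with array weights and 1 without the 4 arrays. Without 1 mouse the count was 0 to 1 in these and for HCC, and 0 between the drug arms and for the diet.

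Calls over all genes moved more. For HCC they were 15, and 0 to 33 without 1 mouse. For sulindac they were 34, between 8 against vehicle with HCC and 206 with array weights. For aspirin with clopidogrel they were 335 against vehicle (111 with only the groups compared, 819 without the 4 arrays), 473 against healthy livers (74 with only the groups compared, 1220 with array weights) and 150 against sulindac (132 with trended robust variances, 407 with array weights). For vehicle against healthy they were 2, between 0 and 959, the upper count without the 4 arrays. Those arrays were picked because they lay nearer the other of these groups, so the upper count is no independent check. The causes of the other shifts were not tested. Intensities near background limit Npas2 and Per1. They also limit the low values of Dbp, Per3 and Arntl, which reached down to 4.37, 4.41 and 4.31.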
